A study of Irpex lacteus with 9 samples.

Results

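The comparison described here is that of wheat straw fermented by a fungus with a solution of ammonium chloride (NH4Cl) added, set against the same material with distilled water added. It rests on 6 of the 9 libraries of the series, chosen by the treatment in their labels: 3 with NH4Cl and 3 with water. The other 3 libraries, with sodium nitrate (NaNO3), enter only the shared estimate of the spread. No strain, dose or time of fermentation is given in the labels. Whether replicates came from separate cultures is not stated either, so that a p-value here measures the spread between samples, which may be technical. The fungus is *Irpex lacteus* by the title and the organism field, which are followed, but the design text calls it *Tricholoma album*.

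*Irpex lacteus* is a white-rot fungus, one of the basidiomycetes that mineralise lignin as well as cellulose and hemicellulose. Ammonium is a preferred nitrogen source of fungi: it enters through ammonium transporters, is fixed on 2-oxoglutarate and glutamate, and in many fungi represses genes for the use of other nitrogen sources. The carbon skeletons for that step come from the citrate cycle in the mitochondria, which ties nitrogen supply to respiration. Genes are given by the product name and locus that the authors' annotation assigned them, and the roles stated for them are those known for the named proteins, often in yeasts or moulds.

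The 6 libraries held 17896230 to 23194078 counts. In the table, 0 genes matched wheat photosynthesis proteins, while class II peroxidases, hydrophobins and chitin-related enzymes of the fungus were present. Since the table holds only genes of the authors' annotation, it cannot tell whether the libraries also held RNA of the straw. NH4Cl replicate 3 stood apart from the other libraries of its group. Its log2 CPM (the share of a library's counts, scaled to a common total) correlated at 0.9365 and 0.946 with NH4Cl replicates 1 and 2, which correlated at 0.9691 with each other. The 3 water libraries correlated with each other at 0.966 to 0.9795. Fold changes and counts below are from the 9 libraries unless others are named, and the adjusted p without NH4Cl replicate 3 is given for the genes named as called. Since RNA was taken from whole fermented straw, fewer fungal cells of a kind and less RNA per cell cannot be told apart.

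**Figure D1:**
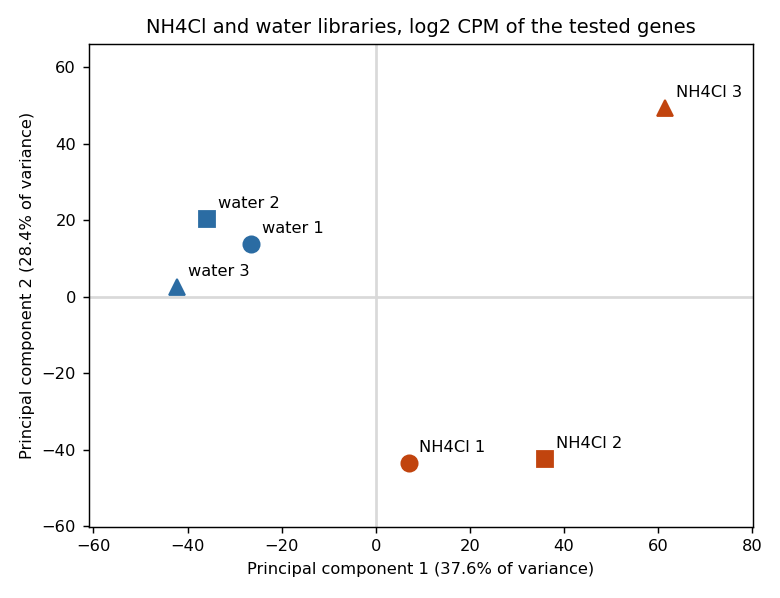
Principal components of the NH4Cl and water libraries, computed on log2 CPM of the tested genes; each point is 1 library, and the axes carry 37.6% and 28.4% of the variance. The 3 water libraries lie close together, NH4Cl replicates 1 and 2 lie below them, and NH4Cl replicate 3 lies at the upper right, away from both.

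In an edgeR fit of all 9 libraries, NH4Cl gave 41 higher genes (0.277%) and 59 lower genes (0.398%) at an adjusted p under 0.05, together 0.675% of the 14808 genes tested. Genes were named by a rule of size and list membership where it reached them; many others below, mainly those of mitochondria, sterols, iron, trehalose and glycogen and those with only a domain, were picked with their values already seen. The word "called", and the words "rose" and "fell", are used below for genes past this threshold in the fit that is named. The genes that fell were mostly ones with a known product, among them enzymes of the citrate cycle and respiratory chain and proteins that build mitochondria. The genes that rose were mostly without one. A named product was present for 6 of the 41 genes that rose (14.6%) and for 34 of the 59 that fell (57.6%), beside 38% of all genes tested. Neither a product, a protein domain, a pathway nor a GO term was present for 17 of the 41 (41.5%) and 9 of the 59 (15.3%), beside 32.2% of all genes tested. The adjusted p of these 100 calls ran only from 0.0403 to 0.0474, and edgeR called 0 genes when any 1 of 5 libraries was left out (NH4Cl replicate 2, water replicates 1 and 2, NaNO3 replicates 2 and 3), with 744 to 1339 genes higher and 1097 to 1415 lower at an unadjusted p under 0.05. It called 0 higher and 5 lower without water replicate 3, 92 and 198 without NH4Cl replicate 1, and 163 and 202 without NaNO3 replicate 1, while DESeq2 called 546 (3.69%) and 625 (4.22%) with all 9, 7.91% in all.

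How many genes were called depended on NH4Cl replicate 3 and on the libraries in the fit. Leaving it out of the joint fit left 12 genes higher (0.0801%) and 18 lower (0.12%), 0.2% of 14989 tested, of which 11 and 3 were among the 100. A fit of the NH4Cl and water libraries alone called 6 genes higher (0.0411%) and 4 lower (0.0274%) with all 6 libraries, 0.0685% together. It called 141 higher (0.955%) and 217 lower (1.47%), 2.43% of 14761, with the 5 that remain without NH4Cl replicate 3. Of the 100 calls of the 9-library fit, 67 were also called with these 5 libraries, 32 that rose and 35 that fell. A joint fit of 7 libraries, which lacks NaNO3 replicate 1 as well as NH4Cl replicate 3, called 287 genes higher (1.92%) and 478 lower (3.21%), 5.13% of 14913, including all 100. All 100 kept their direction and an unadjusted p under 0.05 in each of these fits. The fits share libraries with the one that picked the 100, so this is no independent check. The square root of the common dispersion, a measure of the spread between replicates, was 0.317 with 9 libraries, 0.28 with 6 and 0.217 with 5.

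**Figure D2:**
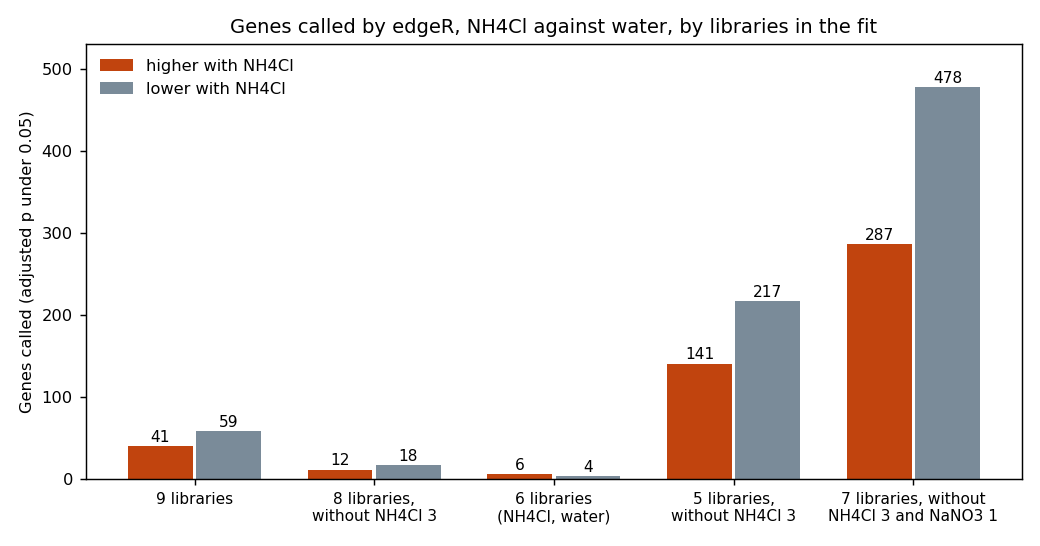
Number of genes called at an adjusted p under 0.05 by edgeR for NH4Cl against water (vertical axis, from 0), by the libraries that entered the fit; the left bar of each pair counts genes higher and the right bar genes lower with NH4Cl. The counts range from 6 and 4 with the 6 libraries of both groups to 287 and 478 with the 7 libraries.

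A pair of citrate cycle enzymes fell with NH4Cl. Mitochondrial fumarate hydratase (BC629DRAFT_1588922), which turns fumarate into malate, had 249, 157 and 155 CPM in the NH4Cl libraries, against 509, 598 and 647 CPM in the water libraries. Subunit 1 of the NAD-dependent isocitrate dehydrogenase (BC629DRAFT_1638504), which makes 2-oxoglutarate, had 58.0, 39.8 and 50.9 CPM with NH4Cl, against 107, 115 and 97.2 CPM with water. In both genes every NH4Cl library, replicate 3 included, was below every water library. The log2 changes were −1.65 ± 0.25 (SE; adjusted p = 0.0415) and −1.10 ± 0.17 (0.0415), and both were also called with the 5 libraries that leave out NH4Cl replicate 3 (adjusted p = 0.0387 and 0.0461).

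The other citrate and glyoxylate cycle genes mostly lay lower as well without passing the threshold. Of 25 tested, 2 were called lower and 0 higher with 9 libraries, and at an unadjusted p under 0.05 12 were lower and 3 higher, where 11% and 7.77% of all genes tested were. The median log2 change of the list was −0.59, beside −0.02 for all genes tested. DESeq2 called 2 of the list higher and 11 lower with 9 libraries (3.69% and 4.22% of all genes tested). Aconitase (BC629DRAFT_1562118) had 920, 632 and 924 CPM with NH4Cl, against 1632, 1652 and 1589 CPM with water (log2 −0.98 ± 0.26, adjusted p = 0.104). Mitochondrial citrate synthase (BC629DRAFT_1443344) had 122, 82.1 and 103 CPM with NH4Cl, against 182, 173 and 168 CPM with water (log2 −0.77 ± 0.21, adjusted p = 0.104). The groups of both genes do not overlap, but neither was called with 9 or with 5 libraries. A gene outside the list (BC629DRAFT_1582856) carries a citrate synthase domain but no product name. It had 83, 60 and 0 counts with NH4Cl and 0 in each water library. That gene was called higher with 5 libraries (adjusted p = 0.0229) and not with 9 (0.2).

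In the respiratory chain, an external alternative NADH dehydrogenase (BC629DRAFT_1593480) fell. This single-protein enzyme of fungal mitochondria oxidises cytosolic NADH without pumping protons. It had 58.1, 55.8 and 65.8 CPM with NH4Cl, against 117, 122 and 98.0 CPM with water (log2 −0.91 ± 0.14, adjusted p = 0.042; 0.0362 with 5 libraries). Cytochrome c heme lyase (BC629DRAFT_1545054), which attaches heme to cytochrome c, fell with it, at 10.9, 8.83 and 7.98 CPM with NH4Cl, against 18.1, 22.4 and 21.3 CPM with water (log2 −1.16 ± 0.16, adjusted p = 0.0415; 0.0443). Cytochrome c itself (BC629DRAFT_1518035) had 158, 60.3 and 74.8 CPM with NH4Cl, against 461, 534 and 643 CPM with water. That is a log2 change of −2.48 ± 0.47, larger in size than either call, yet its adjusted p was 0.0514 with 9 and 0.0501 with 5 libraries, and 0.0336 with 7. Of 42 oxidative phosphorylation genes tested, 1 was called lower and 0 higher, the median log2 change was −0.18, and 12 were lower and 0 higher at an unadjusted p under 0.05 (11% and 7.77% of all genes tested). With 5 libraries 4 were called lower and 0 higher (1.47% and 0.955% of all genes tested). Among the 4 was another external NADH dehydrogenase (NewGene_763), at 21.1, 24.1 and 63.1 CPM with NH4Cl, against 67.7, 63.1 and 70.7 CPM with water (adjusted p = 0.0186 with 5 and 0.254 with 9).

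Several of the genes that fell make or maintain mitochondria. They include the import protein TIM44 (BC629DRAFT_1294481), which brings the import motor to the inner membrane, and cyt-4 (BC629DRAFT_1590425), an RNA processing protein of mitochondria known from *Neurospora*. TIM44 had 11.7, 12.4 and 11.7 CPM with NH4Cl, against 19.2, 20.8 and 21.3 CPM with water (log2 −0.78 ± 0.12, adjusted p = 0.0415). cyt-4 had 11.6, 10 and 12.2 CPM with NH4Cl, against 19.2, 23.9 and 22.7 CPM with water (log2 −0.96 ± 0.15, adjusted p = 0.0415). In both, the 3 NH4Cl libraries lay within a narrow band below all water libraries. A pair of pentatricopeptide repeat proteins, a class that binds organelle RNA, fell too, the first (BC629DRAFT_1596686) at 25.4, 21.0 and 20.4 CPM with NH4Cl, against 47.1, 55.8 and 55.2 CPM with water (log2 −1.24 ± 0.16, adjusted p = 0.0403; 0.0299 with 5 libraries). The second (BC629DRAFT_1554728) changed by log2 −0.87 ± 0.15 (adjusted p = 0.0452). It has the same product name as the first and correlated with it at 0.973 over the 9 libraries, so the pair may share reads. The peptidase ICP55 (BC629DRAFT_1584116), which trims imported proteins, changed by −0.72 ± 0.12 (0.0452). A predicted cardiolipin-specific deacylase (BC629DRAFT_1585377), which acts on the signature lipid of the inner membrane, changed by −1.18 ± 0.20 (0.0452). With the 5 libraries cyt-4 and the deacylase were also called (adjusted p = 0.0437 and 0.0399), while TIM44, the second pentatricopeptide protein and ICP55 missed the threshold (adjusted p = 0.0552, 0.0646 and 0.069).

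Genes whose product name contains "mitochondri", a grouping made after these values were seen, numbered 391 among the tested genes. Of these 0 were called higher and 8 lower, both pentatricopeptide genes among the 8. Genes of the grouping made up 13.6% of the genes that fell and 2.64% of all genes tested, where a product name of any kind was present for 57.6% and 38%. With 5 libraries 1 was called higher and 16 lower, and with 7 it was 1 and 47. The 1 gene called higher was cytochrome c peroxidase (BC629DRAFT_1500519), which removes hydrogen peroxide, at 38.6, 23.5 and 12.4 CPM with NH4Cl, against 11.4, 8.45 and 9.44 CPM with water. Their median log2 change was −0.25 with 9 and −0.23 with 5 libraries, beside −0.02 for all genes tested in both. Among the 37 mitochondrial ribosomal proteins 0 were called with 9 libraries, 11 were lower and 0 higher at an unadjusted p under 0.05 (11% and 7.77% of all genes tested), and the median was −0.34; DESeq2 called 4 lower and voom 7. Of the 90 cytosolic ribosomal proteins 0 were called and 0 passed even the unadjusted threshold in either direction, at a median of −0.02 (DESeq2: 0 called). With 5 libraries 1 of them, L35 (BC629DRAFT_1299863), was called lower, at 14.2, 14.5 and 48.1 CPM with NH4Cl, against 52.2, 56.6 and 54.5 CPM with water (log2 −1.91, adjusted p = 0.00889).

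**Figure D3:**
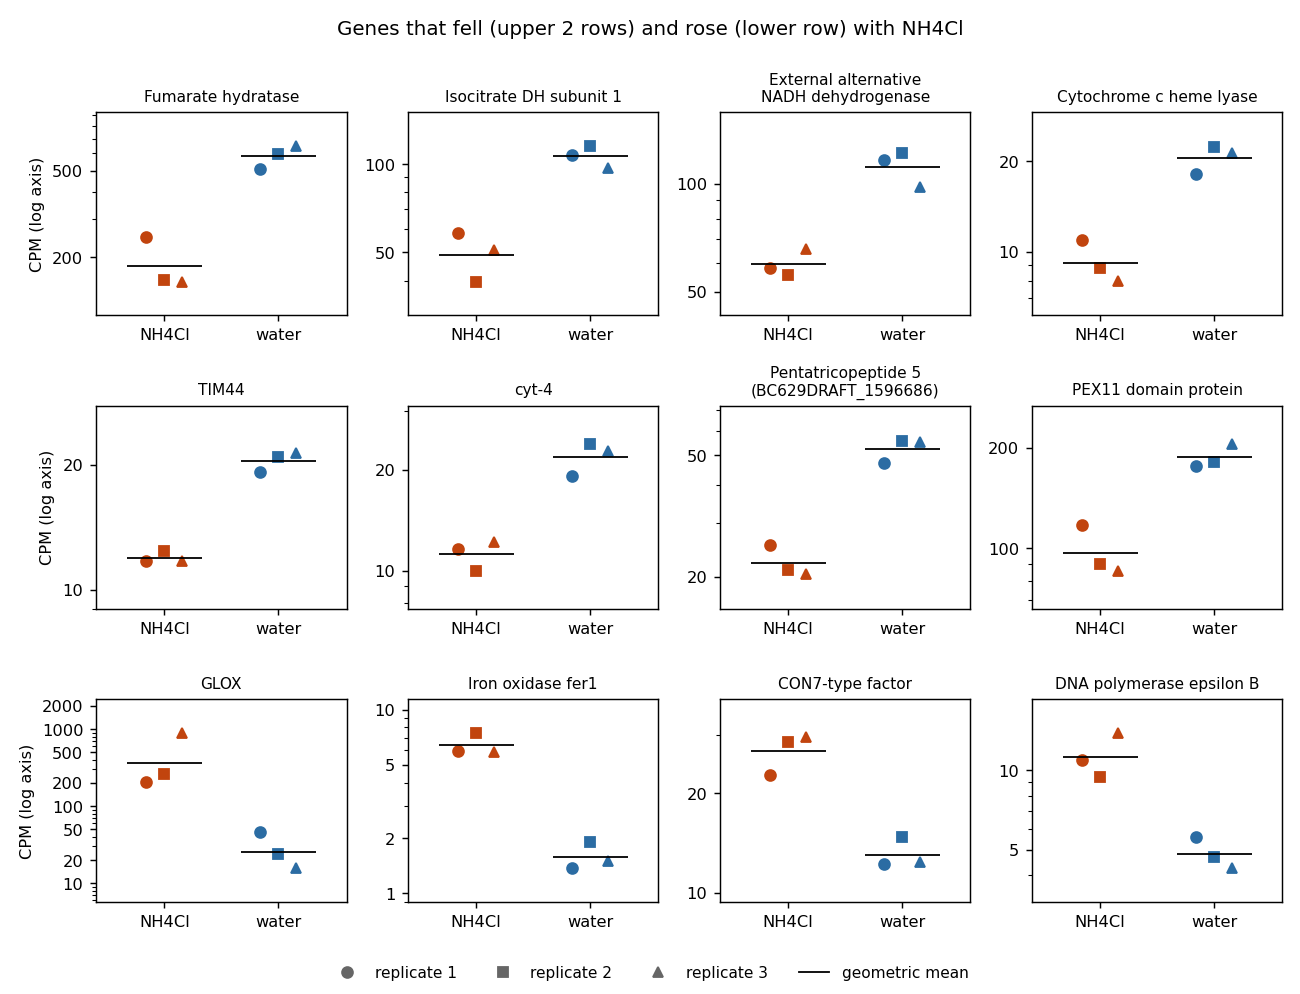
CPM on a log axis of 12 genes called with 9 libraries, with NH4Cl libraries at the left and water libraries at the right of each panel. Symbols mark the replicate number, which no label states to pair samples, and lines the geometric mean. In the upper 2 rows, genes of mitochondria and peroxisomes, all NH4Cl libraries are below all water libraries, and in the lower row all are above.

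A few genes that fell act on fatty acids or in peroxisomes. The 3,2-trans-enoyl-CoA isomerase (BC629DRAFT_1587930), needed to degrade unsaturated fatty acids, had 212, 110 and 130 CPM with NH4Cl, against 694, 494 and 939 CPM with water (log2 −2.23 ± 0.34, adjusted p = 0.0415; 0.0495 with 5 libraries). A PEX11 domain protein (BC629DRAFT_855570), of the family that divides peroxisomes, had 117, 89.9 and 85.8 CPM with NH4Cl, against 176, 181 and 205 CPM with water (log2 −0.94 ± 0.16, adjusted p = 0.0466; 0.0579). Of 27 genes of beta-oxidation tested, the isomerase was the 1 called with 9 libraries, and 5 were lower and 0 higher at an unadjusted p under 0.05, where 11% and 7.77% of all genes tested were. A fused cytochrome P450 and reductase (BC629DRAFT_1590402), of a type that hydroxylates fatty acids, fell to 9.78, 4.61 and 3.91 CPM with NH4Cl, against 34.9, 29.3 and 52.9 CPM with water (log2 −2.68 ± 0.38, adjusted p = 0.0415; 0.0406 with 5 libraries). In all, 4 of 177 cytochrome P450 genes tested were called lower and 0 higher, beside 0.398% and 0.277% of all genes tested. The list median was −0.05. Without adjustment, p was below 0.05 for 27 lower and 14 higher members (11% and 7.77% of all genes tested). DESeq2 called 18 of the list lower and 4 higher (4.22% and 3.69% of all genes tested). A pair of the 4 called lower by edgeR (NewGene_3712 and BC629DRAFT_1583529) correlated at 0.993 over the libraries and may share reads.

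Sterol synthesis had called genes in both fits. Ergosterol, the sterol of fungal membranes, is made from mevalonate, and its delta(7)-sterol 5(6)-desaturase is one of the last steps. That desaturase (BC629DRAFT_1646314) had 47.0, 33.5 and 48.1 CPM with NH4Cl, against 97.2, 159 and 164 CPM with water (log2 −1.71 ± 0.28, adjusted p = 0.0445; 0.0387 with 5 libraries). A second model of the same name (NewGene_3410) had log2 −1.65 ± 0.29 (adjusted p = 0.0457; 0.0412) and followed it at a correlation of 0.998 over the 9 libraries, so both may hold the same reads and count as 1 result. HMG-CoA reductase (BC629DRAFT_1454474), the rate-limiting enzyme of the mevalonate pathway, had 401, 343 and 655 CPM with NH4Cl, against 781, 1158 and 1304 CPM with water. Sterol O-acyltransferase (BC629DRAFT_1275942), which stores sterols as esters, had 32.4, 30.7 and 72.6 CPM with NH4Cl, against 96.1, 111 and 104 CPM with water. In both genes NH4Cl replicate 3 lay between the other NH4Cl libraries and the water libraries. They were called with 5 libraries (log2 −1.52 ± 0.26, adjusted p = 0.0435, and −1.70 ± 0.14, 0.0145) and not with 9 (0.0986 and 0.129). Of 32 genes tested whose product names place them in sterol metabolism, a grouping also made after values were seen, 2 were called lower with 9 libraries, which are both models of the desaturase, and 4 with 5, the same 2 models among them. None was called higher with either, and of all genes tested 0.398% were called lower with 9 and 1.47% with 5.

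Of 45 chitin and glucan wall enzymes tested, edgeR called 0 with 9 libraries, at a median of −0.03 (DESeq2: 3 higher, 3 lower). At an unadjusted p under 0.05 by edgeR, 3 were higher and 6 lower (7.77% and 11% of all genes tested). Single genes with other roles fell. A glycosyltransferase of the group 2 family (BC629DRAFT_1291771), a group that includes chitin synthases, had 277, 200 and 320 CPM with NH4Cl, against 997, 953 and 883 CPM with water. Its log2 change was −1.83 ± 0.21, and unlike most calls it passed in the 9-library fit (adjusted p = 0.0403), without NH4Cl replicate 3 (0.0411) and with 5 libraries (0.0194). A family 16 glycoside hydrolase (BC629DRAFT_1291699), a family with glucan-cutting and wall-remodelling enzymes, had 127, 95.5 and 123 CPM with NH4Cl, against 410, 420 and 439 CPM with water (log2 −1.88 ± 0.26, adjusted p = 0.0415; 0.0186 with 5 libraries and 0.0407 with 6). Both carry a domain but no product name.

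Epsin-1 (BC629DRAFT_412595), an adaptor of endocytosis, fell to 35.0, 21.6 and 24.3 CPM with NH4Cl, against 75.9, 131 and 123 CPM with water (log2 −2.03 ± 0.32, adjusted p = 0.042; 0.0399 with 5 libraries). MAM3 (BC629DRAFT_1703107), a membrane protein of yeast linked to metal homeostasis, had 214, 109 and 129 CPM with NH4Cl, against 423, 509 and 458 CPM with water (log2 −1.62 ± 0.26, adjusted p = 0.042), and missed the threshold with 5 libraries (0.0552); a second MAM3 model, NewGene_984, correlated with it at 0.995 and may share its reads. A gene with a TRP ion channel domain (BC629DRAFT_1291034) had 168, 141 and 170 CPM with NH4Cl, against 339, 378 and 562 CPM with water (log2 −1.42 ± 0.22, adjusted p = 0.0415; 0.0484). The groups of these 3 genes do not overlap, which holds for 28% of all genes tested (11.9% with NH4Cl higher, 16.1% with NH4Cl lower). The C2H2 transcription factor dvrA (BC629DRAFT_1281244), a regulator known from *Aspergillus*, changed by log2 −2.26 ± 0.38 (adjusted p = 0.0452; 0.0305 with 5 libraries), with 20.1, 11.7 and 14.5 CPM with NH4Cl, against 61.4, 66.6 and 94.0 CPM with water. The histidine kinase mak2 (BC629DRAFT_1590318), a peroxide sensor in fission yeast, changed by −1.0 ± 0.17 (0.0452; 0.0413), and a glutathione S-transferase (BC629DRAFT_921642), of the family that conjugates toxic molecules, by −1.66 ± 0.20 (0.0403; 0.0304).

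Of the genes that rose, GLOX (BC629DRAFT_1598350) was the most abundant with a product name; glyoxal oxidases of white-rot fungi supply hydrogen peroxide to peroxidases. It had 208, 265 and 890 CPM with NH4Cl, against 46.0, 23.7 and 15.6 CPM with water. All NH4Cl libraries were above all water libraries, with replicate 3 the highest. The log2 change was 4.0 ± 0.64 with 9 libraries (adjusted p = 0.042) and 3.08 ± 0.42 with 5 (0.0299). Of 15 GLOX and WSC domain genes tested it was the 1 called with 9 libraries, at a list median of −0.37 (−0.13 with 5). Of all genes tested, 0.277% were called higher with 9, and DESeq2 called 2 of the list higher and 0 lower. A transcription factor named for CON7 (BC629DRAFT_1243677), needed for spore formation in the rice blast fungus, had 22.6, 28.5 and 29.5 CPM with NH4Cl, against 12.2, 14.7 and 12.4 CPM with water (log2 1.04 ± 0.16, adjusted p = 0.0415; 0.0461 with 5 libraries). Subunit B of DNA polymerase epsilon (BC629DRAFT_1583118), of the replicative polymerase, had 10.9, 9.40 and 13.8 CPM with NH4Cl, against 5.58, 4.70 and 4.25 CPM with water (log2 1.23 ± 0.21, adjusted p = 0.0452; 0.0421). With 9 libraries it was the 1 called gene among 50 of DNA replication and histones, a list with a median of 0.18. Of all genes tested, 0.277% were called higher in that fit. With 5 libraries it was the 1 called higher, and 2 others of the list were called lower (0.955% and 1.47% of all genes tested).

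An omega-3 fatty acid desaturase (BC629DRAFT_163522), which adds a double bond to membrane lipids, rose by log2 1.29 ± 0.22 with 9 libraries (adjusted p = 0.0452) but missed the threshold with 5 (0.0545). A Diels-Alderase of a secondary metabolite cluster (BC629DRAFT_676559) rose by log2 1.63 ± 0.27 (adjusted p = 0.0448; 0.0436 with 5 libraries). A gene with a class 3 lipase domain (BC629DRAFT_1284490) had 80.6, 67.6 and 87.5 CPM with NH4Cl, against 33.8, 37.5 and 29.3 CPM with water (log2 1.23 ± 0.19, adjusted p = 0.0415; 0.0292). A gene with an RNA recognition motif (BC629DRAFT_554607) had 40.4, 53.7 and 80.6 CPM with NH4Cl, against 14.7, 10.2 and 8.44 CPM with water (log2 2.39 ± 0.30, adjusted p = 0.0403; 0.0262). None of these groups overlap. A gene with a BTB/POZ domain (BC629DRAFT_1518202), a fold for protein contacts, had 76, 31 and 76 counts with NH4Cl and 0 in each water library. Set against a floor of 3 counts per library it was at least 22.1-fold higher with NH4Cl, a limit that covers counting error only (adjusted p = 0.0403; 0.0376 with 5 libraries).

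High-affinity iron uptake was a further group with genes that rose. In fungi a multicopper oxidase and an iron permease work as a pair at the plasma membrane, fed by ferric reductases. The iron oxidase fer1 (NewGene_1730) had 5.97, 7.46 and 5.89 CPM with NH4Cl, against 1.37, 1.90 and 1.51 CPM with water. It rose by log2 2.01 ± 0.22 and was called with 9, 8, 7, 6 and 5 libraries in the fits that keep or leave out NH4Cl replicate 3 (adjusted p = 0.0403 with 9, 0.0396 without NH4Cl replicate 3, 0.0407 with 6, 0.0229 with 5, and 0.0104 with 7). It was not called without water replicate 1, 2 or 3 (0.0616, 0.175 and 0.0919), without NH4Cl replicate 2 (0.126) or without NaNO3 replicate 2 or 3 (0.0631 and 0.0778). The iron permease ftrA (BC629DRAFT_1642070) had 45.7, 84.6 and 40.9 CPM with NH4Cl, against 21.7, 18.2 and 18.3 CPM with water. A second fer1 gene (BC629DRAFT_1532663) had 15.5, 21.2 and 12.7 CPM with NH4Cl, against 5.36, 4.40 and 5.81 CPM with water. The oxidase fio1 (NewGene_1731) had 186, 131 and 70.3 CPM with NH4Cl, against 66.5, 53.0 and 60.8 CPM with water. In these 3 genes too every NH4Cl library was above every water library, with replicate 3 the lowest of its group. They were called with 5 libraries (log2 1.77 ± 0.26, 1.84 ± 0.21 and 1.42 ± 0.19; adjusted p = 0.0311, 0.0229 and 0.029) and not with 9 (0.0576, 0.0633 and 0.185). Of 22 iron uptake genes tested, 1 was called higher with 9 libraries and 4 with 5, and 0 lower with either; the 5-library fit called 0.955% of all genes higher. The list's median was 0.13, and the ferric reductases and siderophore transporters in it had 0 calls.

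A further pair of genes of iron handling were called only where NH4Cl replicate 3 was left out. The gene named suppressor of ferric uptake 1 (BC629DRAFT_1284964), after a GATA-type repressor of iron uptake genes in *Candida*, had 358, 362 and 143 CPM with NH4Cl, against 150, 137 and 141 CPM with water. DRE2 (BC629DRAFT_284433), which helps assemble iron-sulfur clusters in the cytosol, had 653, 377 and 91.6 CPM with NH4Cl, against 189, 133 and 102 CPM with water. In both, NH4Cl replicates 1 and 2 were above all water libraries, while NH4Cl replicate 3 was within or below the water libraries. With 5 libraries the log2 changes were 1.35 ± 0.13 (adjusted p = 0.0186) and 1.88 ± 0.32 (0.0413), and with 9 the adjusted p was 0.179 and 0.311.

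NH4Cl replicate 3 was also far below replicates 1 and 2, but above all water libraries, in a predicted oxalate decarboxylase (BC629DRAFT_1590463), which breaks down the oxalate that wood-decay fungi secrete. It had 534, 570 and 55.7 CPM with NH4Cl, against 22.9, 31.4 and 49.2 CPM with water. Its log2 change was 4.02 ± 0.33 with 5 libraries (adjusted p = 0.0145) and 3.49 ± 0.95 with 9 (0.108). A dye-decolorizing peroxidase (BC629DRAFT_1489472), of a heme peroxidase family that acts on bulky aromatics, had 43.4, 51.8 and 29.9 CPM with NH4Cl, against 18.6, 16.3 and 15.7 CPM with water (log2 1.51 ± 0.15 with 5 libraries, adjusted p = 0.0187; 0.199 with 9). The versatile peroxidase VPS1 gene BC629DRAFT_1589173 went the other way, at 269, 396 and 42.5 CPM with NH4Cl, against 1296, 1501 and 1937 CPM with water (log2 −2.23 ± 0.28 with 5 libraries, adjusted p = 0.0272; 0.328 with 9). Of the 15 class II peroxidases tested it was the 1 called with 5 libraries, and 0 were called with 9 (DESeq2: 0). The median log2 change of that list lay above 0, at 0.39 with 9 and 0.38 with 5 libraries. At an unadjusted p under 0.05 with 9 libraries, 1 was higher and 0 lower (7.77% and 11% of all genes tested).

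Several genes of trehalose and glycogen metabolism, and a pair of protein kinases, fell with 5 libraries and stood near or above the water libraries in NH4Cl replicate 3. Trehalose, a stress protectant and reserve sugar of fungi, is made by a synthase and a phosphatase. The trehalose-phosphate synthase (BC629DRAFT_1522544) had 80.9, 111 and 376 CPM with NH4Cl, against 285, 276 and 337 CPM with water. Trehalose-phosphatase (BC629DRAFT_1715247) had 8.64, 10.8 and 51.4 CPM with NH4Cl, against 29.1, 26.5 and 39.7 CPM with water. In both genes NH4Cl replicates 1 and 2 were the lowest and NH4Cl replicate 3 the highest of the 6 libraries. The log2 changes were −1.62 ± 0.20 and −1.69 ± 0.24 with 5 libraries (adjusted p = 0.0272 and 0.0304), and −0.66 ± 0.71 and −0.43 ± 0.91 with 9 (0.662 and 0.84).

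The glycogen debranching enzyme (BC629DRAFT_1461929) had 51.5, 53.7 and 112 CPM with NH4Cl, against 125, 109 and 121 CPM with water (log2 −1.15 ± 0.14 with 5 libraries, adjusted p = 0.025), and glycogen synthase (BC629DRAFT_1487243) changed by −1.03 ± 0.15 (0.0305). Of 12 trehalose and glycogen genes tested, a grouping made after values were seen, 4 were called lower with 5 libraries (1.47% of all genes tested) and 0 with 9. At an unadjusted p under 0.05 with 9 libraries, 1 was higher and 1 lower, against 7.77% and 11% of all genes tested. In 10 of the 12 NH4Cl replicate 3 was above both other NH4Cl libraries, as it was in 5810 of all 14808 genes tested. HOG1 (BC629DRAFT_1279816), the protein kinase of the osmotic stress pathway in yeast, had 92.6, 133 and 373 CPM with NH4Cl, against 309, 283 and 306 CPM with water. The kinase srk1 (BC629DRAFT_1626129), which acts in the stress pathway of fission yeast, had 81.8, 117 and 385 CPM with NH4Cl, against 342, 270 and 276 CPM with water. NH4Cl replicate 3 was again the highest of the 6 libraries in both, and replicates 1 and 2 the lowest. The log2 changes with 5 libraries were −1.39 ± 0.20 and −1.55 ± 0.22 (adjusted p = 0.0305 and 0.0303), and with 9 the adjusted p was 0.578 and 0.586.

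**Figure D4:**
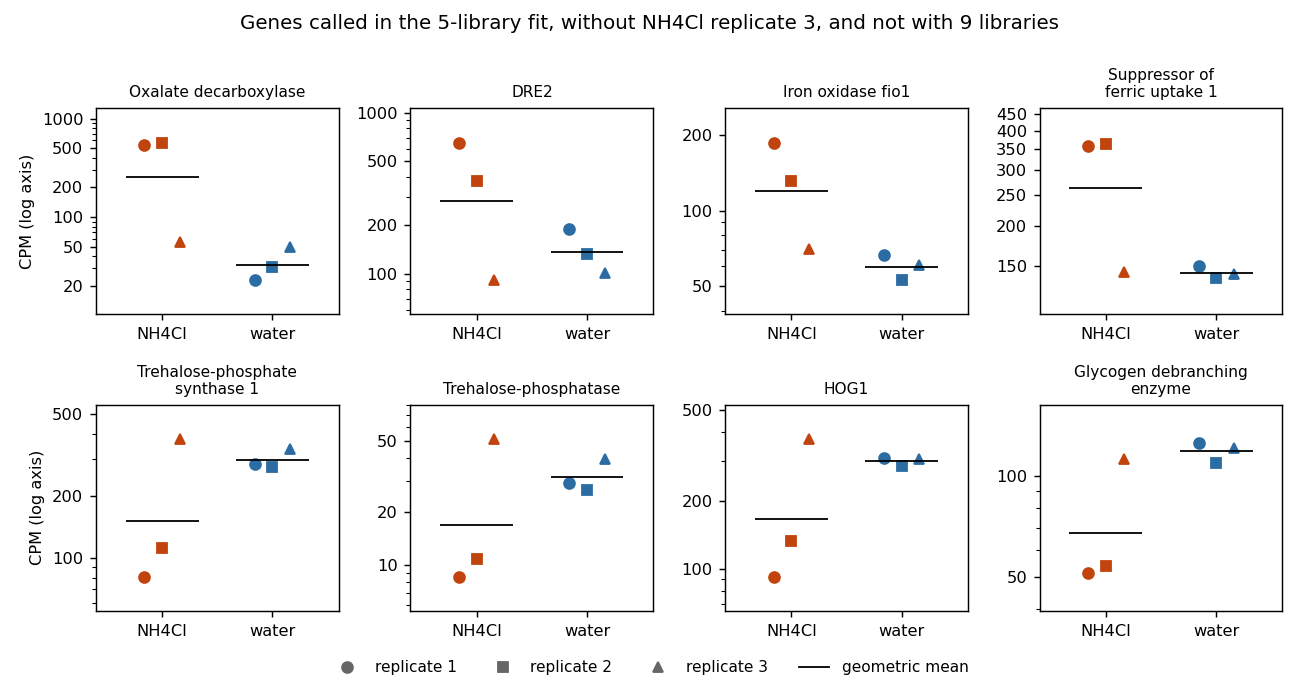
CPM on a log axis of 8 genes called with 5 libraries and not with 9, with NH4Cl libraries at the left and water libraries at the right; symbols mark the replicate and lines the geometric mean. NH4Cl replicate 3 (triangles) lies at or near the water libraries in every panel, away from NH4Cl replicates 1 and 2.

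NH4Cl replicate 3 also differed from its group in the enzymes that cut plant polysaccharides. It was above both other NH4Cl libraries in 16 of 16 cellulases, 17 of 20 lytic polysaccharide monooxygenases and cellobiose dehydrogenases, and 29 of 38 hemicellulases and pectinases, and below both in 86 of 90 cytosolic ribosomal proteins and 10 of 15 class II peroxidases. Of all 14808 genes tested, it was above both in 5810 and below both in 5492. A polysaccharide monooxygenase (BC629DRAFT_982829, listed as endo-beta-1,4-glucanase D), which cuts cellulose by oxidation, had 16.3, 25.3 and 1985 CPM with NH4Cl, against 206, 258 and 6.15 CPM with water. A xylanase (BC629DRAFT_1597012), which cuts the main chain of hemicellulose, had 2.10, 6.15 and 395 CPM with NH4Cl, against 35.4, 51.7 and 2.07 CPM with water. In both genes water replicate 3 was also below the other water libraries, next to NH4Cl replicates 1 and 2. The median log2 change was 1.76 for the monooxygenase list and 1.87 for the cellulases with 9 libraries, and −1.51 and −0.64 with 5. With 9 or with 5 libraries edgeR called 0 genes of the cellulase, monooxygenase and hemicellulase lists (DESeq2 called 1 cellulase and 1 hemicellulase higher). At an unadjusted p under 0.05 by edgeR with 9, 8 were higher and 0 lower in all (7.77% and 11% of all genes tested).

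**Figure D5:**
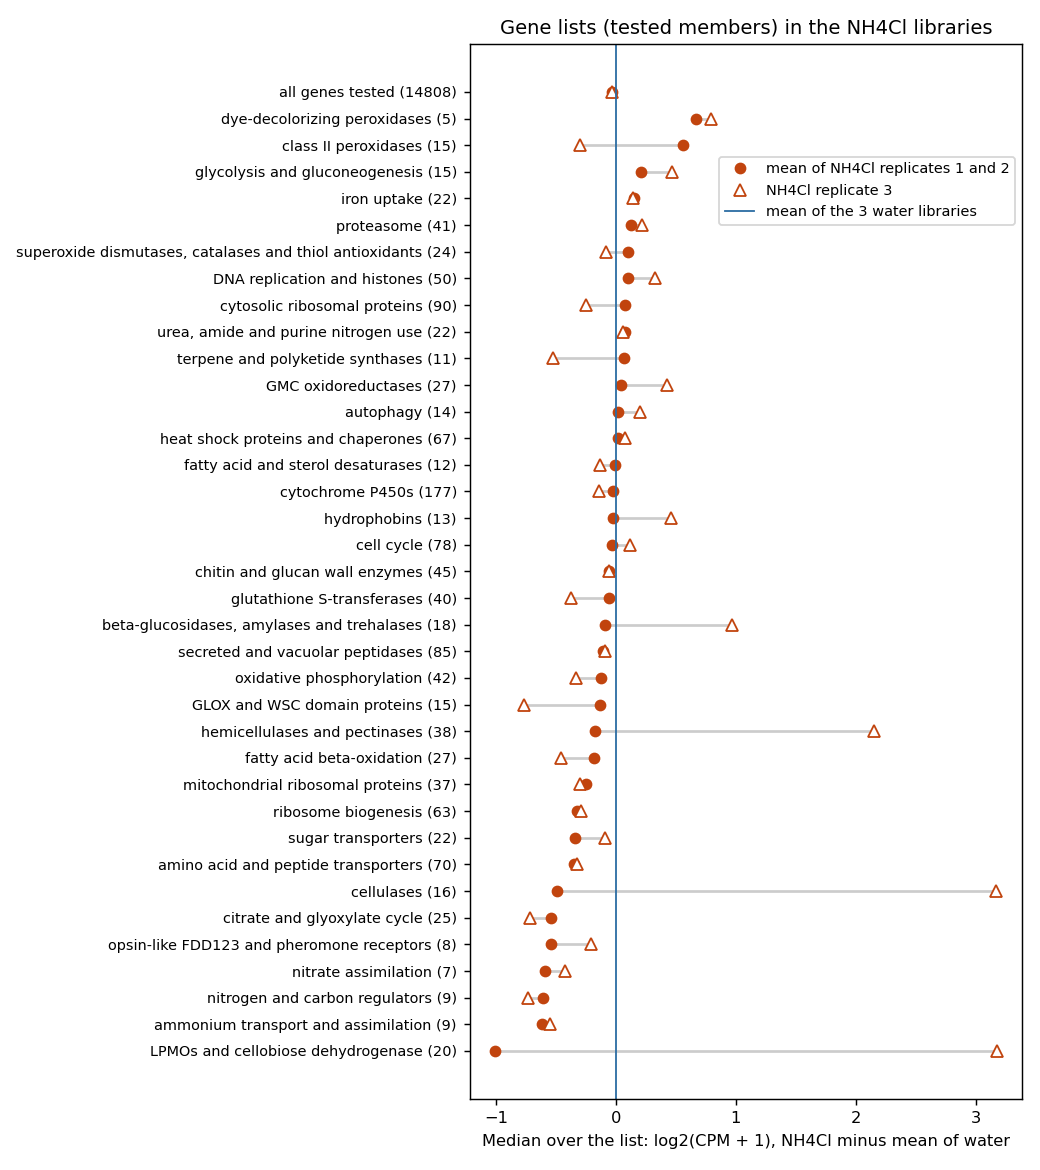
For each gene list, with its number of tested members, the median over members of log2(CPM + 1) minus the mean of the water libraries (vertical line at 0), given for the mean of NH4Cl replicates 1 and 2 (filled circles) and for NH4Cl replicate 3 (open triangles). Cellulases, monooxygenases and hemicellulases lie right of 0 in NH4Cl replicate 3 and left of it in replicates 1 and 2, while the ammonium, nitrate, amino acid transporter and citrate cycle lists lie left of 0 in both.

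The lists of nitrogen genes had few calls, and their medians lay below 0 except for urea, amide and purine use. Of 7 nitrate assimilation genes tested, 0 were called with 9 libraries, at a median of −0.54 (DESeq2: 1 higher, 3 lower). Of 9 nitrogen and carbon regulators, 0 were called, at a median of −0.77 (DESeq2: 5 lower). At an unadjusted p under 0.05, 1 and 0 of these lists were higher, and 3 and 6 lower. Of all genes tested, 7.77% were higher and 11% lower at that threshold. Of 22 genes for the use of urea, amides and purines, 0 were called with 9 libraries, an unadjusted p under 0.05 was reached by 2 that were higher and 5 that were lower, and the median was 0.09 (DESeq2: 1 higher, 3 lower). The ammonium transporter NewGene_3477 had 19.8, 22.3 and 24.2 CPM with NH4Cl, against 253, 341 and 30.8 CPM with water, where water replicate 3 stood near the NH4Cl libraries (log2 −3.24 ± 0.71, adjusted p = 0.0682; 0.105 with 5 libraries). A further ammonium transporter (BC629DRAFT_1596464) had 3.41, 2.85 and 3.91 CPM with NH4Cl, against 56.6, 41.0 and 4.75 CPM with water (log2 −3.33 ± 0.77, adjusted p = 0.0761; 0.106). Of 9 genes of ammonium transport and assimilation, 0 were called with 9 or 5 libraries, and the median was −0.65 (DESeq2: 4 lower). At an unadjusted p under 0.05, 4 were lower and 0 higher (11% and 7.77% of all genes tested).

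Of 70 amino acid and peptide transporters, 0 were called with 9 libraries, 5 were called lower (1.47% of all genes tested) and 0 higher with 5, and 24 were lower and 0 higher at an unadjusted p under 0.05 with 9 (11% and 7.77% of all genes tested), at a median of −0.41 (DESeq2: 11 lower). A lysine permease (BC629DRAFT_238992) had 256, 169 and 164 CPM with NH4Cl, against 479, 556 and 470 CPM with water (log2 −1.22 ± 0.22 with 5 libraries, adjusted p = 0.0476; 0.0536 with 9). The peptide transporter ptr2 (BC629DRAFT_1288078) had 82.6, 84.9 and 82.3 CPM with NH4Cl, against 220, 247 and 226 CPM with water (log2 −1.45 ± 0.14 with 5 libraries, adjusted p = 0.0186; 0.0882 with 9 and 0.0407 with 6). In both genes NH4Cl replicate 3 lay with or next to the other libraries of its group. The secreted tripeptidyl-peptidase sed3 (BC629DRAFT_1579821), which frees peptides from protein, fell with 9 libraries, at 444, 501 and 437 CPM with NH4Cl, against 1191, 2649 and 1632 CPM with water (log2 −1.99 ± 0.31, adjusted p = 0.042; 0.0522 with 5). Of 85 peptidases tested it was the 1 called with 9 libraries, at a list median of −0.13. A second gene named sed3 (BC629DRAFT_1005965) went the other way. That gene had 83, 109 and 240 CPM with NH4Cl, against 38.3, 21 and 15.6 CPM with water. It was called higher with 5 libraries (log2 1.96 ± 0.36, adjusted p = 0.0494) and not with 9 (0.0633). With 5 libraries 2 peptidases were called higher and 1 lower (0.955% and 1.47% of all genes tested). A glutaminase (BC629DRAFT_1436707), which releases ammonium from glutamine, rose with 5 libraries, at 84.9, 104 and 74.1 CPM with NH4Cl, against 53.6, 50.7 and 47.4 CPM with water (log2 0.92 ± 0.15, adjusted p = 0.0372; 0.168 with 9).

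Some abundant transcripts differed widely without being called by edgeR with 9 or 5 libraries, though DESeq2 and voom called the 3 given here with 9. In each of them NH4Cl replicate 1 was the NH4Cl library nearest to water. The plasma membrane ATPase (BC629DRAFT_1442883), the proton pump that drives nutrient uptake, had 4658, 1824 and 1936 CPM with NH4Cl, against 8696, 11272 and 12598 CPM with water (log2 −1.95 ± 0.47, adjusted p = 0.081). The transcription factor SFP1 (BC629DRAFT_1437891), a regulator of ribosome genes in yeast, had 634, 128 and 97.7 CPM with NH4Cl, against 1669, 1913 and 2240 CPM with water (log2 −2.76 ± 0.67, adjusted p = 0.0846). The opsin-like protein FDD123 (BC629DRAFT_1669149) had 1144, 414 and 335 CPM with NH4Cl, against 1906, 2826 and 3067 CPM with water (log2 −2.04 ± 0.50, adjusted p = 0.086). In these 3 genes every NH4Cl library was below every water library; the adjusted p by DESeq2 was 0.000503, 0.000468 and 0.00135, and by voom 0.0131, 0.013 and 0.017.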

How the data were processed

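RNA-seq counts of 9 libraries were used, 3 per treatment (NH4Cl, water, NaNO3), grouped by the labels. The deposited table holds raw read counts and FPKM values per gene made by the authors, and, per the file headers, log2 fold changes and adjusted p-values of the authors' own DESeq2 comparisons, which are not printed here. HISAT2 and StringTie are named in the submitters' processing notes; strand handling and build are not given in the sources used here. Of 19212 genes, 2855 had no count and 14808 passed edgeR's filterByExpr. The main test was edgeR's quasi-likelihood test (edgeR 4.0.16, R 4.3.3) with TMM scaling on all 9 libraries, contrast NH4Cl minus water, with Benjamini-Hochberg adjustment at 0.05. DESeq2 1.42.0 and limma 3.58.1 (voom with library weights, and log2(FPKM + 1) or + 0.1) were alternatives. CPM are counts scaled to a common total by TMM library sizes. The comparison, the lists and the rule for named genes were chosen with earlier results of these data known. By that rule the largest called changes with a named product, a mean FPKM of at least 10 and groups that do not overlap are named, together with the leading members of each list, the genes farthest apart in NH4Cl replicate 3 and the most abundant. On simulated counts of 14654 genes the main test called 15 of 100 genes changed 2-fold and 77 of 100 changed 4-fold, with 3 others. No 2 libraries were identical. Counting intervals cover counting error only.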

Additional observations from a re-analysis of the deposited data

How the results depend on the processing

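Numbers of genes called are given as higher and lower with NH4Cl, beside 41 and 59 in the 9-library edgeR fit. DESeq2 called 546 and 625, voom with library weights 716 and 1208, and limma on log2(FPKM + 0.1) 9 and 9. Without the filter on low counts 30 and 18 were called, and at an adjusted p under 0.1 it was 218 and 440. The NH4Cl and water libraries alone gave 6 and 4, the same without NH4Cl replicate 3 gave 141 and 217, leaving out NaNO3 replicate 1 as well as NH4Cl replicate 3 from the joint fit gave 287 and 478, and DESeq2 without NH4Cl replicate 3 gave 356 and 608. Leaving out 1 library at a time gave 0 to 163 higher and 0 to 202 lower. DESeq2 size factors in edgeR (40 and 40) and limma on log2(FPKM + 1) (29 and 47) stayed within 1.5 times. With replicate number as a block 0 and 0 were called by edgeR (952 and 1492 at an unadjusted p under 0.05). No label states a pairing, and the main fit used none. Same-numbered libraries of both groups deviated from their group means at correlations of −0.0433, −0.0816 and −0.136, and libraries of unlike number at −0.0747 to 0.12. With 3 libraries per group such values cannot decide whether the numbers pair the samples. All 100 calls kept their direction and an unadjusted p under 0.05 in every setting. They were picked for small p-values in the 9-library fit, and every setting shares libraries with it, so this is no independent check. Of the single genes, the polysaccharide monooxygenase BC629DRAFT_982829 and the xylanase BC629DRAFT_1597012, neither called in any setting, turned from higher to lower: to log2 −1.45 and −1.56 with voom, −2.89 and −2.83 with 5 and with 7 libraries, −2.87 and −2.81 by DESeq2 without NH4Cl replicate 3, and −0.46 and −0.27 with the replicate block. Leaving out 1 library at a time gave −2.86 to 2.71 and −2.80 to 2.84 for them. The causes of these differences were not tested.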

Other observations

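Transporters of small molecules were among the larger differences not yet described. A gene named for an itaconate transport protein (BC629DRAFT_1582567), of a family that carries organic acids, fell with 9 libraries to 43.1, 28.9 and 25.9 CPM with NH4Cl, against 77.4, 147 and 124 CPM with water (log2 −1.83 ± 0.28, adjusted p = 0.0415). A second one (BC629DRAFT_551280) changed by log2 −2.48 ± 0.41 (adjusted p = 0.0444). In both genes all NH4Cl libraries were below all water libraries, and with the 5 libraries without NH4Cl replicate 3 neither passed the threshold (adjusted p = 0.0537 and 0.0552). The efflux pump FUS6 (BC629DRAFT_1286777) had 339, 398 and 34.8 CPM with NH4Cl, against 31.9, 29.6 and 3.35 CPM with water (log2 3.57, adjusted p = 0.126 with 9 libraries). The transporter ucsD (BC629DRAFT_1529686) had nearly the same profile, at 319, 338 and 35.1 CPM with NH4Cl, against 33.2, 35.9 and 2.91 CPM with water (log2 3.27, adjusted p = 0.142). In both, replicate 3 was the lowest library of its group.

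Wall, sugar and abundant genes gave further values. A chitin deacetylase (BC629DRAFT_1716602), which turns chitin into chitosan, had 292, 291 and 1119 CPM with NH4Cl, against 58.7, 18.7 and 10.6 CPM with water (log2 4.27, adjusted p = 0.0508 with 9 and 0.0545 with 5 libraries). Another (BC629DRAFT_1581038) had 1275, 1076 and 1600 CPM with NH4Cl, against 667, 566 and 591 CPM with water, and was called with 5 libraries (log2 0.97 ± 0.17, adjusted p = 0.0418; 0.0576 with 9). One more (NewGene_2243) was called lower with 5 libraries, at 28.6, 31.7 and 21.1 CPM with NH4Cl, against 54.5, 49.2 and 48.7 CPM with water (log2 −0.73, adjusted p = 0.0487; 0.0508 with 9). The groups of these 3 genes do not overlap. Enolase (BC629DRAFT_1467074), of glycolysis, had 887, 1717 and 1603 CPM with NH4Cl, against 683, 546 and 560 CPM with water (log2 1.23, adjusted p = 0.122 with 9 libraries). Elongation factor 3 (BC629DRAFT_1463575), among the most abundant transcripts and a part of fungal translation, had 7926, 8890 and 8715 CPM with NH4Cl, against 7246, 6548 and 7156 CPM with water (log2 0.29, adjusted p = 0.639).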
